A study of Homo sapiens with 5 samples.

Results

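The genes described here encode subunits and cofactors of RNA polymerase I (Pol I) and nucleolar factors that turn its transcript into ribosomes. They were chosen by symbol, from a list of 52 genes that used no measured value, and all 52 were found among the 26485 genes of the deposited count table. Gene expression was measured by poly-A RNA-seq in 5 libraries of RPE1, an immortalised cell line from human retinal pigment epithelium. For 18 h the cells received DMSO, the solvent of the drug (2 libraries), doxorubicin at 0.2 μM (2 libraries) or doxorubicin at 0.34 μM (1 library). These are the doses of the sample labels and of the paper's Results and captions. The protocol text gives doses 3 orders of magnitude higher. The doses of the labels serve here as names of the groups. Doxorubicin is an anthracycline that intercalates into DNA and poisons topoisomerase 2. Every library was thus made from the same cell line, and the lone library at 0.34 μM has no replicate of its own.

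Pol I transcribes a single kind of gene, the ribosomal DNA repeats, into a long precursor that is cut and modified in the nucleolus to give ribosomal RNAs of both subunits. UBTF and the SL1 complex (TBP with TAF1A, TAF1B, TAF1C and TAF1D) mark the promoter, RRN3 brings in the polymerase, and TTF1 ends transcription. Small nucleolar ribonucleoproteins (snoRNPs) guide the modification of the precursor, and separate sets of assembly factors build the small and the large subunit. Many of these genes are known targets of the transcription factor MYC, which binds the E-box, the letters CACGTG.

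The counts on genes summed to between 23773061 and 36725345 per library. All 52 genes passed the filter on low counts, with 82 to 33751 counts in DMSO replicate 1. Of the markers of retinal pigment epithelium, MITF (743 to 1503 counts) and OTX2 (601 to 887 counts) were present in all libraries, while RPE65, which defines the differentiated tissue, had between 3 and 8 counts and RLBP1 at most 3. Of the 4 testable markers of 8, edgeR (adjusted p under 0.01) called 0 and DESeq2 called PMEL as higher (5 and 7 counts in DMSO, 22 to 46 in doxorubicin), and BEST1 (14 and 26 against 30 to 142 counts) did not overlap between the treatments either. The leukocyte marker PTPRC had 5 and 7 counts in DMSO and 25 to 72 in doxorubicin, and CDH1 and EPCAM had at most 4. Of the 7 testable markers of 10 for other cell types, edgeR called 0. DESeq2 called PTPRC and the epithelial keratin KRT8 (log2 fold change, log2FC, of 0.87) as higher. Of the 7, 4 lay above DMSO without overlap, with KRT18 (log2FC 0.63) and COL1A2 (6 to 13 counts). Of all genes tested, 24.3% lay above DMSO without overlap. VIM lay below DMSO without overlap (log2FC -0.23), and COL1A1 (-0.46) and FN1 (0.25) overlapped. The part of any other cell type in the results below was not tested. Within this bulk RNA, fewer cells of a type and less RNA per cell cannot be told apart.

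The motifs searched for, which the choice of genes did not use, were more frequent in the promoters of these genes than in all promoters. Promoters of other ribosome biogenesis genes were not summarised separately. The RefSeq table of promoters on GRCh38.p14 (250 bases before to 50 bases after each start) held 55 promoters of 44 of the genes. It had no entry for POLR1E, NOP58, NOLC1, BOP1, RRP1B, RRP12, RRS1 and DDX18. The E-box CACGTG, which reads alike on both strands, was present in 18 of the 55 promoters (32.7%), against 7.26% of all 35116 promoters and 9.03% of the 15131 promoters of genes tested. It occurred 19 times, of which 12 lay within the 50 bases after the start. The core of the ETS motif, CCGGAAG or its complement CTTCCGG, was present in 24 of the 55 promoters (43.6%), against 10.3% of all promoters and 16.0% of those of genes tested. The E-boxes of the 4 genes with the lowest and the 4 with the highest fold changes among the 17 genes that hold one are printed below with their flanks, since the same letters occurred in genes at both ends of the range. Capitals mark the E-box, and the sequences read 5′ to 3′ on the strand of the gene.
LYAR, chr4:4290068-4290097, minus strand: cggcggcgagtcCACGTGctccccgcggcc
FBL, chr19:39846356-39846385, minus strand: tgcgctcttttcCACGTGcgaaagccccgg
EBNA1BP2, chr1:43172790-43172819, minus strand: gatattgttggcCACGTGggatcgaagacc
GNL3, chr3:52686026-52686055, plus strand: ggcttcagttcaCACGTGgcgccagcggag
MYBBP1A, chr17:4555340-4555369, minus strand: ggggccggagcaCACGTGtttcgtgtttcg
RRP9, chr3:51941892-51941921, minus strand: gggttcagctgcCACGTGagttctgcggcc
WDR43, chr2:28894658-28894687, plus strand: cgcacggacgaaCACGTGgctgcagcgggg
BYSL, chr6:41921515-41921544, plus strand: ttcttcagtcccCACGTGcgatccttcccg
EBNA1BP2 holds a second E-box, 43 bases into the transcript of another start. Promoters of UBTF, TTF1, NCL and NPM1 did not hold these letters within the window.

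Next, the fold changes were compared between the pooled 3 doxorubicin libraries and the 2 DMSO libraries. Of the 52 genes, 38 had a log2FC (given below with its standard error, SE) below 0 (48.9% of all genes tested did) and 14 one above 0. The median was -0.20, against 0.01 over the 14187 genes tested. RRS1 was the only gene to pass the threshold (quasi-likelihood test of edgeR, p adjusted after Benjamini-Hochberg over all genes tested and under 0.01), and it rose, where 4.02% of all genes tested passed, 1.29% of them higher and 2.73% lower. At an unadjusted p under 0.05, 10 genes were lower (15.6% of all genes tested) and 1 was higher (15.2%). DESeq2 on the same groups called 5 of the 52 genes, RRS1 as higher and UBTF, TTF1, NCL and LYAR as lower, where 14.3% of the genes tested were called by it, 6.44% higher and 7.82% lower. In 13 genes every doxorubicin library lay below both DMSO libraries (23.4% of all genes tested), and in 3, RRS1, RRP12 and TAF1C, every doxorubicin library lay above them (24.3%). The numbers called by edgeR and by DESeq2 were not above the shares of all genes, and the number that lay below DMSO was close to it. The direction of the list depended on DMSO replicate 2: without it, 26 of the 52 fold changes were below 0 and the median was -0.02, while without DMSO replicate 1 there were 46, with a median of -0.33.

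**Figure D1:**
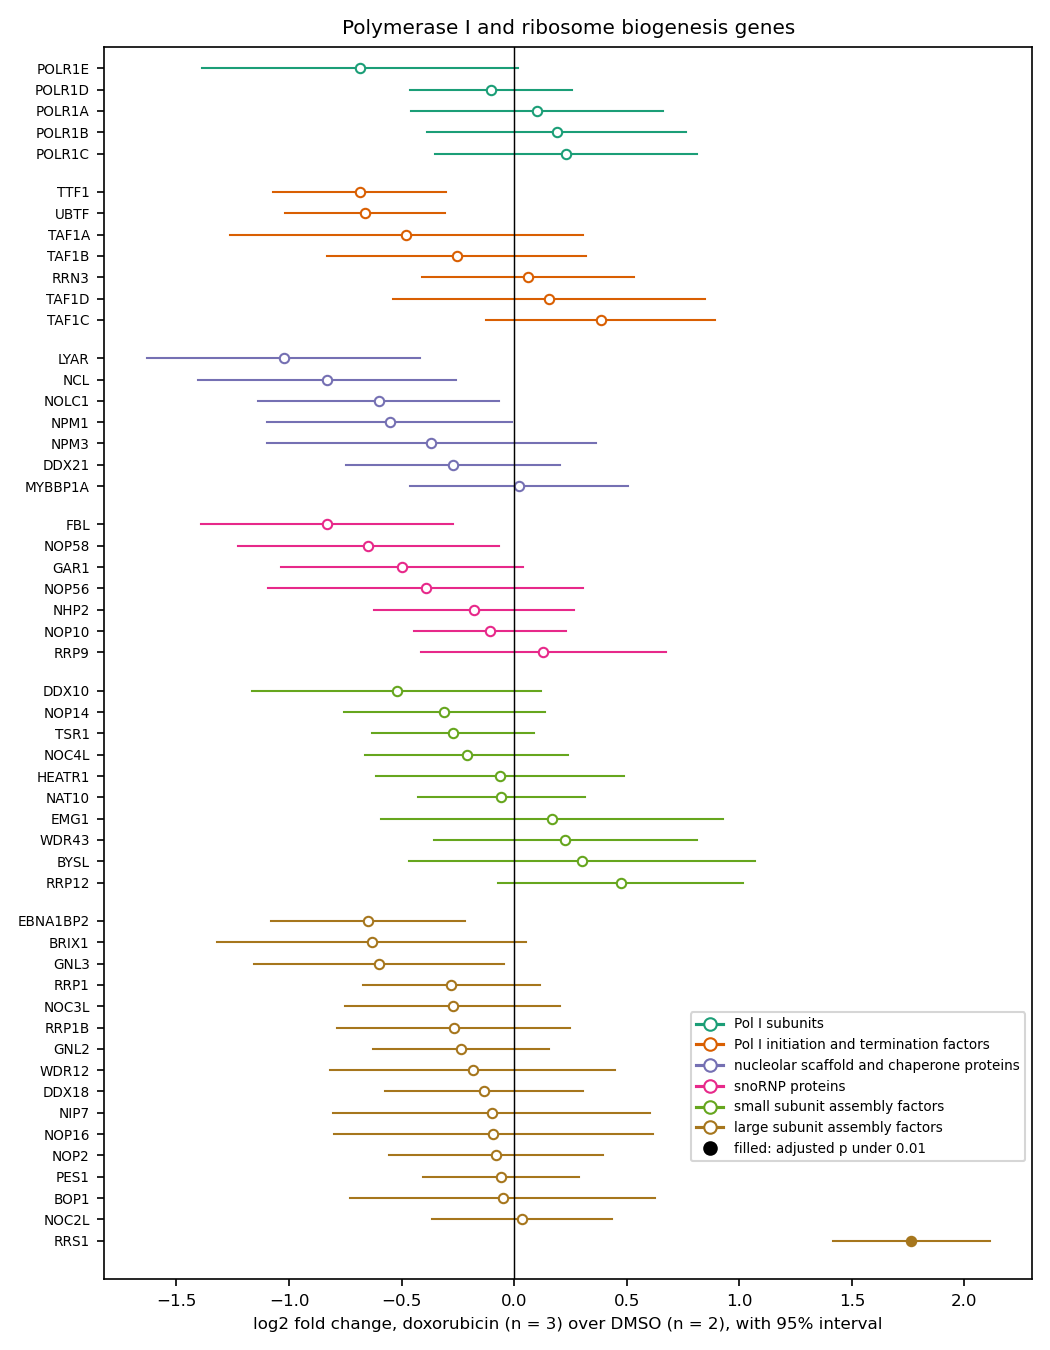
Log2FC of each of the 52 genes between the 3 doxorubicin and the 2 DMSO libraries (x axis), with its 95% interval from edgeR, grouped and coloured by role (y axis). The filled point is RRS1 at 1.76, the only gene past the threshold, while the others lie between -1.02 and 0.47, most with intervals that include 0.

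The rise of RRS1 was the largest change of the list. RRS1 encodes an assembly factor of the large subunit that, with RPF2, helps to bring the 5S RNA and its proteins RPL5 and RPL11 into the precursor particle. It is a gene of 1 exon on chromosome 8 of GRCh38 (66429014 to 66430733). Its level was 39.6 and 43.4 CPM (counts scaled to the library size with TMM factors) in the DMSO libraries, 134 and 150.1 CPM at 0.2 μM and 138 CPM at 0.34 μM. The groups were far apart, and the spread within each was small. The log2FC was 1.76 (SE 0.15, 95% interval 1.41 to 2.11, adjusted p = 0.00135, edgeR), a 3.40-fold higher level, and it stayed between 1.69 and 1.81 when single libraries were omitted. Without DMSO replicate 2 the adjusted p was 0.0121 in edgeR, so that the call was lost, and it was at most 0.0164 over the alternatives. With DESeq2 it was 1.36e-22. The lncRNA LOC102724687 overlaps RRS1 in RefSeq and is not a row of the count table, and the divergent RRS1-AS1, which starts beside it, had 3 and 10 counts in DMSO and 18 to 46 in doxorubicin. The libraries were stranded per the labels, but the strand setting of the counting is not stated in them.

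The partners of RRS1, named after the values were seen, did not show a change of that size. RPF2 was at 26.7 and 28.6 CPM in DMSO and at 24.0, 31.7 and 23.1 CPM in doxorubicin (log2FC -0.07, 95% interval -0.54 to 0.39). For RPL5 the log2FC was -0.05 (95% interval -0.44 to 0.33) and for RPL11 it was 0.06 (-0.31 to 0.44). The levels of these 3 genes overlapped between the groups.

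Among the 5 Pol I subunits on the list, none passed the threshold and the doxorubicin libraries overlapped with DMSO in all 5. POLR1A, the largest subunit, which holds part of the active site, was at 51.0 and 82.1 CPM in DMSO and at 65.7, 82.7 and 65.8 CPM in doxorubicin. Its log2FC was 0.10 (SE 0.23, 95% interval -0.46 to 0.66). POLR1B, the second largest, was at 19.3 and 30.7 CPM in DMSO and at 26.4, 33.0 and 26.1 CPM in doxorubicin, with a log2FC of 0.19 (-0.39 to 0.76). The DMSO libraries of both genes differed from each other by more than the means of the treatments did. POLR1C, shared with Pol III, had the highest log2FC of the subunits (0.23, SE 0.24). POLR1E was the lowest, with 16.3 and 30.0 CPM in DMSO and 13.6, 17.3 and 12.3 CPM in doxorubicin (log2FC -0.69, 95% interval -1.39 to 0.02, adjusted p = 0.171, edgeR). Omitting DMSO replicate 1 gave -1.07 and omitting replicate 2 gave -0.20.

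Of the 7 factors of initiation and termination, UBTF and TTF1 had the lowest p-values. UBTF, the HMG-box protein that holds ribosomal DNA in its active state, was at 186 and 154 CPM in DMSO and at 112, 100.5 and 110 CPM in doxorubicin. All doxorubicin libraries were lower, and the log2FC was -0.66 (SE 0.15, 95% interval -1.02 to -0.31). The adjusted p was 0.0328 in edgeR, which missed the threshold, and 0.00201 in DESeq2, which passed it. TTF1 was at 20.1 and 21.9 CPM in DMSO and at 13.1, 13.2 and 12.8 CPM in doxorubicin. Its 3 doxorubicin libraries were almost equal, with a log2FC of -0.69 (SE 0.16) and an adjusted p of 0.0378 in edgeR and 0.00367 in DESeq2. RRN3, by contrast, was at 38.8 and 51.7 CPM in DMSO and at 43.2, 55.0 and 43.5 CPM in doxorubicin (log2FC 0.06, 95% interval -0.41 to 0.53). The 4 SL1 subunits were spread over both sides of 0, from TAF1A at -0.48 (SE 0.33) to TAF1C at 0.38 (SE 0.21). For TAF1C, omitting DMSO replicate 1 gave 0.10 and omitting replicate 2 gave 0.71. TAF1A had the fewest counts of the 52 genes, at 82 and 113 in DMSO.

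The 7 nucleolar scaffold and chaperone genes had the lowest median of the roles, with a log2FC of -0.55, and 6 of the 7 were below 0. NCL encodes nucleolin, which binds the nascent precursor. It was at 1288 and 1001 CPM in DMSO and at 548, 829 and 552 CPM in doxorubicin. All doxorubicin libraries were lower, with replicate 2 of 0.2 μM nearest to DMSO, and the log2FC was -0.83 (SE 0.24, adjusted p = 0.0660 in edgeR and 0.00865 in DESeq2). NPM1, nucleophosmin, a histone and ribosome chaperone, was at 1131 and 1105 CPM in DMSO and at 660, 989 and 637 CPM in doxorubicin. Its log2FC was -0.55 (SE 0.23, adjusted p = 0.156, edgeR). NPM1 has processed pseudogenes, with which its reads could be shared in the counting. Per kilobase of the canonical GENCODE transcript, available for 51 of the genes, NPM1 (847 CPM per kilobase) and NCL (292 CPM per kilobase) had the highest mean levels in DMSO and TAF1A the lowest (1.98 CPM per kilobase).

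LYAR, a nucleolar zinc finger protein of growing cells, had the lowest fold change of the 52 genes. It was at 20.2 and 19.5 CPM in DMSO and at 8.35, 13.0 and 7.99 CPM in doxorubicin. The groups did not overlap, and the log2FC was -1.02 (SE 0.26, 95% interval -1.63 to -0.42). LYAR had an adjusted p of 0.0444 in edgeR and 0.00332 in DESeq2. Over all alternatives, which include single libraries omitted, the adjusted p lay between 0.00332 and 0.187 for LYAR, 0.00201 and 0.288 for UBTF, 0.00367 and 0.298 for TTF1, and 0.00865 and 0.244 for NCL, with each log2FC below 0 throughout. NOLC1, a chaperone of snoRNPs, had a log2FC of -0.60 (SE 0.22). MYBBP1A, a repressor and processing factor of the nucleolus, was the highest of this role, with a log2FC of 0.02 (SE 0.20, 95% interval -0.46 to 0.50).

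**Figure D2:**
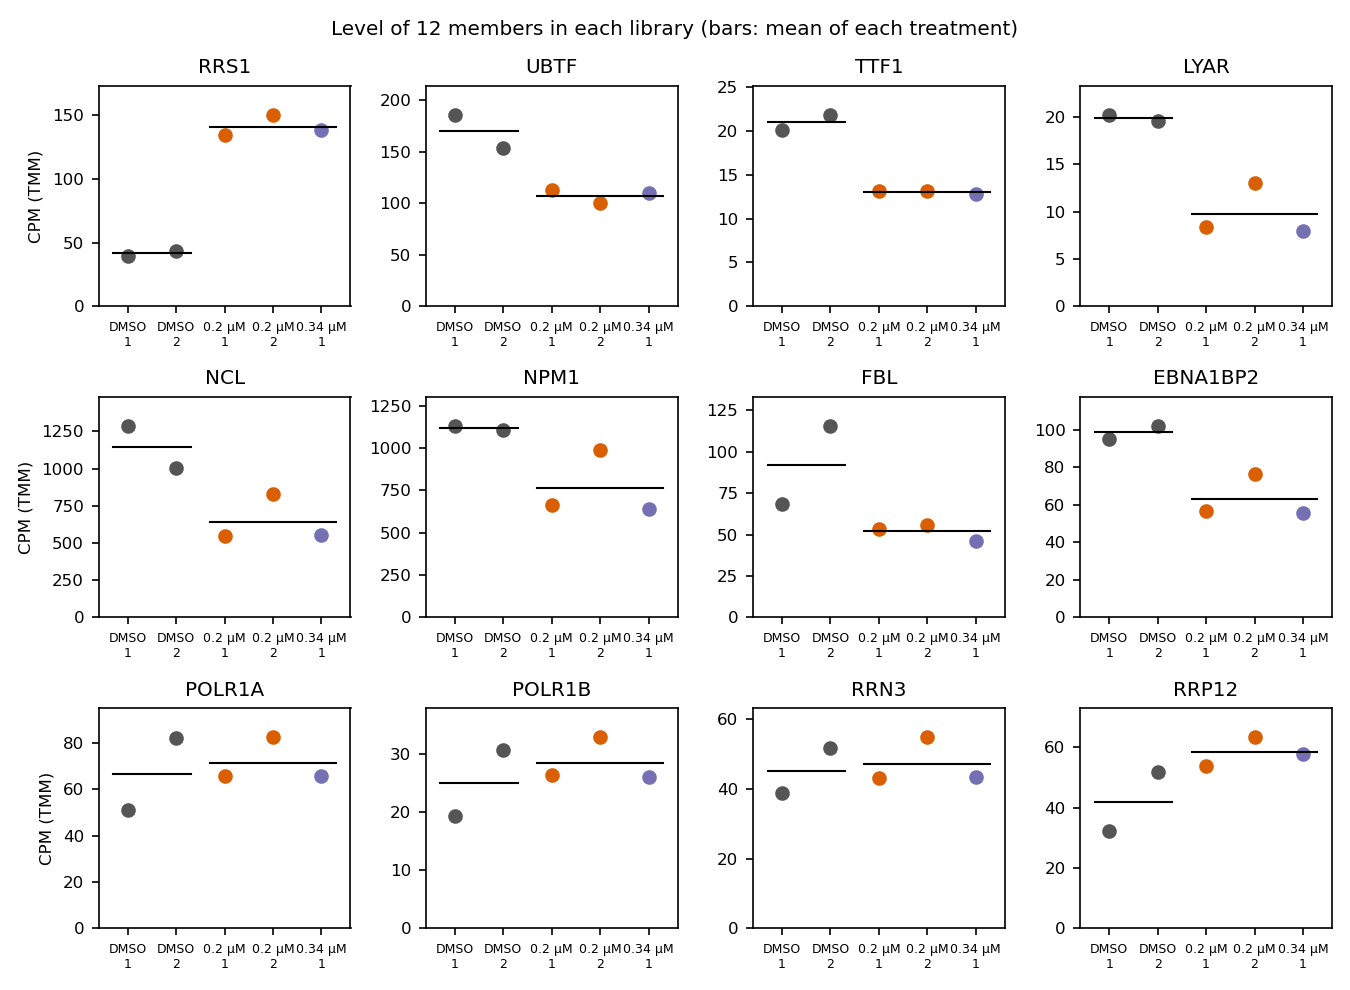
TMM-normalized CPM (y axis, from 0) of 12 of the genes in each of the 5 libraries (x axis), with the mean of the 2 DMSO and of the 3 doxorubicin libraries as bars. RRS1 lies at 134 to 150.1 CPM after doxorubicin against 39.6 and 43.4 in DMSO, UBTF and TTF1 are lower in every doxorubicin library, and POLR1A, POLR1B and RRN3 overlap between the treatments.

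Of the 7 snoRNP proteins, 6 had a log2FC below 0, with a median of -0.39, while 5 overlapped between the treatments and edgeR and DESeq2 called 0. FBL encodes fibrillarin, the methyltransferase of box C/D snoRNPs. It was at 68.7 and 116 CPM in DMSO and at 53.6, 56.0 and 46.1 CPM in doxorubicin. The doxorubicin libraries were lower and close together, while the DMSO libraries differed from each other by more than the lower of them did from doxorubicin. The log2FC was -0.83 (SE 0.23, adjusted p = 0.0626, edgeR), and -0.42 without DMSO replicate 2. NOP58 and NOP56, the paired core proteins of the same particles, had log2FCs of -0.65 (SE 0.24) and -0.39 (SE 0.29). Of the box H/ACA proteins, which serve pseudouridylation, GAR1 was at -0.50, NHP2 at -0.18 and NOP10 at -0.11. RRP9, a protein of the U3 particle, was the only member of this role above 0, at 0.13 (SE 0.23).

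Of the 10 assembly factors of the small subunit, 6 were below 0 and 4 above, with a median of -0.06. The lowest was DDX10, an RNA helicase, at 41.3 and 31.3 CPM in DMSO and 21.5, 34.1 and 20.3 CPM in doxorubicin (log2FC -0.52, SE 0.27, adjusted p = 0.243, edgeR). The value was -0.32 without DMSO replicate 1 and -0.79 without replicate 2 of 0.2 μM. RRP12, which takes part in the export of the precursor particle, was the highest. It was at 32.1 and 51.9 CPM in DMSO and at 53.8, 63.5 and 57.7 CPM in doxorubicin. The groups did not overlap, but DMSO replicate 2 lay close to doxorubicin, and the log2FC of 0.47 (SE 0.23) had an adjusted p of 0.214 in edgeR. Omitting DMSO replicate 1 gave 0.16 and omitting replicate 2 gave 0.84.

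Of the 16 assembly factors of the large subunit, 14 were below 0, with a median of -0.16. EBNA1BP2 was the lowest, at 95.02 and 102.2 CPM in DMSO and at 56.5, 76.3 and 55.7 CPM in doxorubicin (log2FC -0.65, SE 0.18, adjusted p = 0.0599, edgeR). Its groups did not overlap, nor did those of GNL3, nucleostemin, a GTPase that shuttles out of the nucleolus (-0.60, SE 0.23). The 3 proteins of the PeBoW complex lay close to 0, with log2FCs of -0.06 for PES1 (SE 0.14), -0.05 for BOP1 (SE 0.28) and -0.18 for WDR12 (SE 0.27). NOC2L was at 0.03 and was, with RRS1, the only member of this role above 0.

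The libraries of the same treatment differed across the list. In DMSO, replicate 2 was higher than replicate 1 in 40 of the 52 genes, with a median log2 difference of 0.30, against 0.01 over all genes tested. At 0.2 μM, replicate 2 was higher than replicate 1 in 45 of the 52 genes, with a median of 0.36, against 0.02 over all genes tested. These differences were larger than the median fold change of the list after doxorubicin. Without replicate 2 of 0.2 μM, doxorubicin lay below DMSO without overlap in 28 of the 52 genes instead of 13 (31.8% of all genes tested), and without DMSO replicate 1 in 31 (35% of all genes tested). Without DMSO replicate 2 it lay below in 17 (36.8% of all genes tested). It lay above DMSO without overlap in 19 of the 52 genes instead of 3 when DMSO replicate 2 was left out (37.2% of all genes tested). Fewer libraries make such a gap more frequent in any gene. The 7 genes that hold SNORD or SNORA genes on their own strand (TAF1D, NCL, NOP56, NOP58, WDR43, GNL3 and TSR1) were all higher in replicate 2 of 0.2 μM than in replicate 1. Their median log2 difference was 0.70, against 0.33 in the other 45 genes. Between the DMSO replicates the order was the other way, with 0.18 in these 7 genes and 0.38 in the others. TAF1D, the widest of these, was at 33.2 CPM in replicate 1 and 63.0 in replicate 2.

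**Figure D3:**
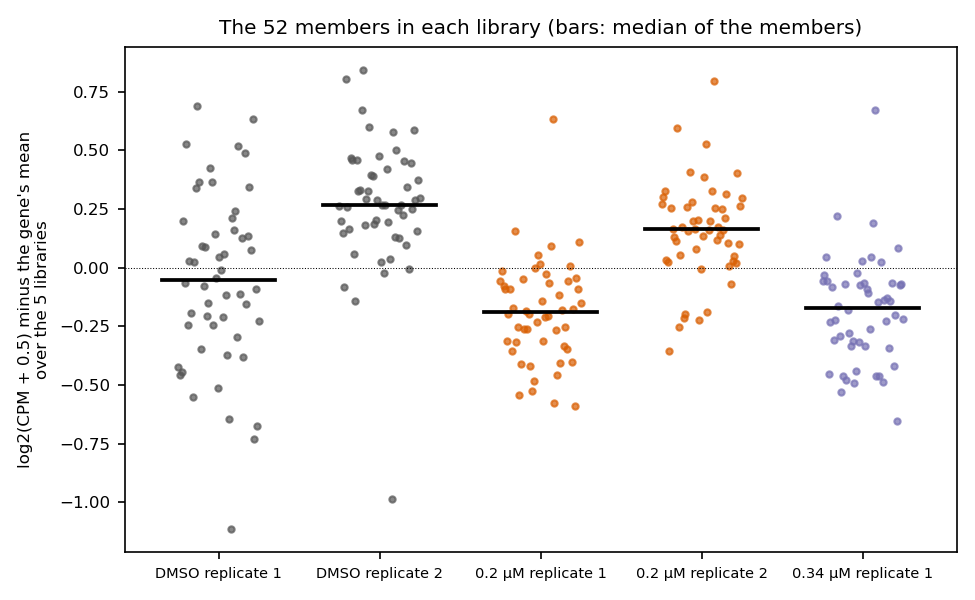
For each of the 52 genes, log2(CPM + 0.5) in a library minus the gene's mean over the 5 libraries (y axis), by library (x axis), with the median of the genes as a bar. The medians are 0.27 in DMSO replicate 2 and 0.16 in replicate 2 of 0.2 μM, against -0.05, -0.19 and -0.17 in DMSO replicate 1, replicate 1 of 0.2 μM and the 0.34 μM library.

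To compare the doses, contrasts were taken from a fit of 3 conditions. Both doses share the DMSO libraries, so their values are given side by side. The median log2FC of the list from DMSO was -0.16 at 0.2 μM (36 of 52 below 0) and -0.29 at 0.34 μM (43 of 52). RRS1 passed the threshold at 0.2 μM (log2FC 1.78), where 1.21% of all genes tested passed, and missed it at 0.34 μM (1.74, adjusted p = 0.0164, edgeR), where 0.627% passed. For UBTF the values were -0.68 and -0.63, for NCL -0.73 and -1.05, and for LYAR -0.90 and -1.31. Between 0.34 μM and 0.2 μM, edgeR called 0 of the 52 genes, with 0 at an unadjusted p under 0.05, where 0 and 22 of the 14187 genes tested did so (0.155% at the unadjusted p). DESeq2 and limma voom also called 0 of the 52. The median log2 difference was -0.19, and the 0.34 μM library was lower than both 0.2 μM libraries in 20 of the 52 genes (28.9% of all genes tested), between them in 30 (47.4%) and above both in 2 (23.7%). It lay close to replicate 1 (median log2 difference 0.00) and below replicate 2 (-0.33). This absence of calls is no evidence of equal action.

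Other genes of ribosome biogenesis were measured with a list of 102 genes outside the 52. All were tested, 65 had a log2FC below 0 and the median was -0.10. None passed the threshold in edgeR, with 14 at an unadjusted p under 0.05 (4 higher and 10 lower, where 30.8% of all genes tested had such a p). DESeq2 called 3 of the 102, DKC1, AATF and DDX54, all lower, where it called 6.44% of all genes tested as higher and 7.82% as lower. Of the 102, 22 lay below DMSO without overlap (23.4% of all genes tested) and 10 lay above it (24.3%). The share called was thus below that of all genes. DKC1, the pseudouridine synthase of box H/ACA snoRNPs and partner of GAR1, NHP2 and NOP10, was at 64.7 and 82.8 CPM in DMSO and at 36.1, 50.7 and 34.7 CPM in doxorubicin. Its log2FC was -0.87 (SE 0.22, adjusted p = 0.0457 in edgeR and 0.00506 in DESeq2). AATF, a factor of the small subunit, had a log2FC of -0.83 (SE 0.17) and DDX54, a helicase, one of -0.52 (SE 0.13). Of the Pol I subunits, this list held CD3EAP, ZNRD1 and TWISTNB, which lay between 0.01 and 0.11. Pol I subunits on neither list were not examined.

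MYC itself was at 111 and 80.1 CPM in DMSO and at 87.8, 115 and 85.7 CPM in doxorubicin (log2FC 0.01, 95% interval -0.49 to 0.51). The groups overlapped. In a list of 11 genes of the MYC network, 10 were tested, with a median log2FC of 0.03. Of the 10, 8 had a log2FC above 0, MYC among them, where 7254 of all 14187 genes tested did. The highest, at 1.90, did not pass the threshold. MXD3, an antagonist of MYC, was the only one past the threshold, which 4.02% of all genes tested passed. It fell with a log2FC of -2.34 (SE 0.26, adjusted p = 0.00336, edgeR). Among the 52 genes, those with an E-box in the promoter had a median log2FC of -0.24 (13 of 17 below 0) and those without it -0.18 (19 of 27 below 0). This difference was not tested.

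Compared with related genes, the median of the list (-0.20) lay on the other side of 0 from that of the ribosome's own proteins. Without DMSO replicate 2 the median of the list was -0.02, and the ribosomal proteins were not summarised without it. Of 86 genes for cytosolic ribosomal proteins and their paralogs, 84 were tested, with 64 above 0 and a median log2FC of 0.17. Of the 84, 34 lay above DMSO without overlap (24.3% of all genes tested did) and 3 lay below (23.4%). RPS27L, a known p53 target, was the only one past the threshold, which 4.02% of all genes tested passed. It rose with a log2FC of 1.61 (adjusted p = 0.00544, edgeR). Of 22 genes of Pol III and its factors, 13 were below 0, with a median of -0.07. Of these, edgeR called 0, with 2 at an unadjusted p under 0.05 (30.8% of all genes tested). DESeq2 called 1 of the 22, POLR3K, as lower (log2FC -1.33), where it called 14.3% of all genes tested. The differences between these lists were not tested.

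**Figure D4:**
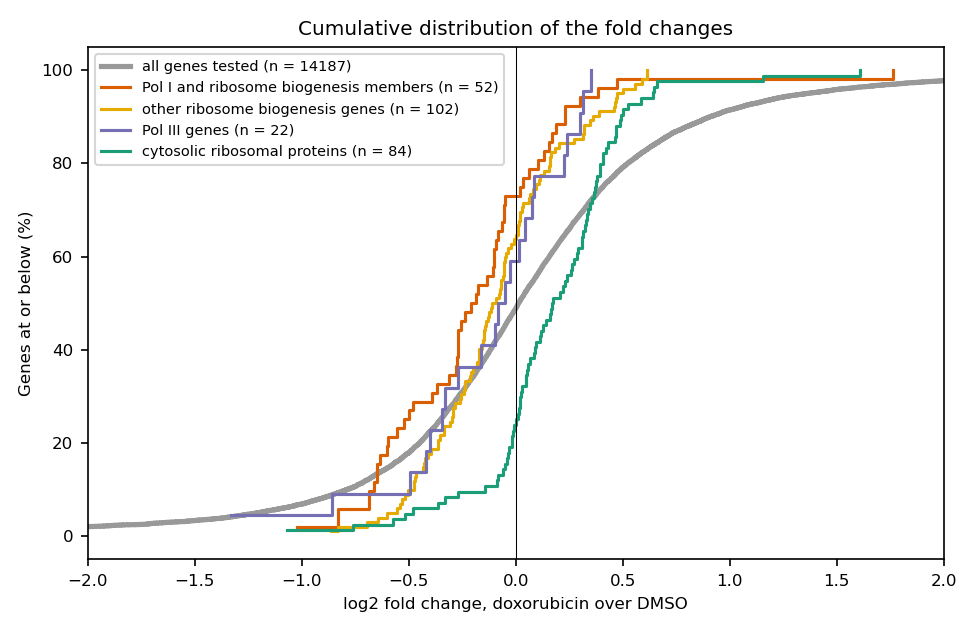
Share of genes (y axis, in percent) with a log2FC at or below the value on the x axis, for the 52 genes, 102 other ribosome biogenesis genes, 22 Pol III genes, 84 cytosolic ribosomal protein genes and all 14187 genes tested. At 0 the curve of the 52 genes lies above that of all genes, and the curve of the ribosomal proteins lies below it.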

How the data were processed

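The deposited raw counts per gene were produced by the authors from paired-end, poly-A selected, stranded libraries, aligned to hg38 with STAR and counted with Rsubread (featureCounts per the labels) on the iGenomes annotation. Software versions, the strand setting and the handling of multi-mapping reads are not stated there. The authors' own fold changes and p-values, also deposited, were not used. Under R 4.3.3, edgeR 4.0.16 gave the main result, a quasi-likelihood test of the 3 doxorubicin libraries against the 2 DMSO libraries (biological replicates in the methods), after TMM normalization and a filter (minimum count 10, minimum total 15) that left 14187 genes for Benjamini-Hochberg adjustment, with a threshold of 0.01. Alternatives used DESeq2 1.42.0, limma voom (limma 3.58.1), other normalizations, filters, depths and subsets of libraries. The counts of genes without overlap when a library is omitted were added after seeing the data. Scripts were tested on simulated data. No library was a duplicate (chi-square over its degrees of freedom was 117 between the DMSO libraries and 75.3 between the 0.2 μM libraries). Standard errors are the absolute log2 fold change over the square root of F. Genes given in full are those past the threshold, the lowest and highest of each role, and POLR1A, POLR1B, UBTF, RRN3, NCL, NPM1, FBL and MYC. Of the other biogenesis genes, up to 5 lowest and 5 highest past the threshold were to be named, and the remaining examples were chosen after their values were seen. The genes, lists and tests were chosen with earlier results of these data known. Older symbols were matched for 3 listed genes. Transcript lengths and snoRNA genes came from GENCODE v44 lifted to GRCh37 (no coordinates used), and positions and promoters from RefSeq on GRCh38.p14.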

Additional observations from a re-analysis of the deposited data

How the results depend on the processing

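The call of RRS1 was the only one among the 52 genes with limma voom, RLE or upper quartile normalization, no filter, thinned counts and 0.2 μM alone. The number of the 52 genes called was 5 with DESeq2, 4 at an adjusted p under 0.05 (RRS1, UBTF, TTF1 and LYAR), 0 with 0.34 μM alone and between 0 and 1 when single libraries were omitted, where the median of the 52 genes was between -0.33 and -0.02. Of the other biogenesis genes, 3 were called with DESeq2, 3 at 0.05, and 0 when single libraries were omitted. Over all genes the main count of 571 became 2026 with DESeq2 and 1020 in edgeR without the filter, both over 20717 genes in place of 14187 (2024 of the DESeq2 calls were among the 14187), 171 with 0.2 μM alone, 89 with 0.34 μM alone, 1927 at 0.05 and between 49 and 215 when single libraries were omitted. For DESeq2, 20717 is the number of genes with counts, and the number over which it adjusted p was not recorded. The cause of the changes in these counts was not tested. With 0.34 μM alone, the fold changes of POLR1A (-0.016), RRN3 (-0.058) and MYC (-0.16) turned negative. Leaving out libraries gave ranges that include 0 for POLR1A (-0.21 to 0.47), POLR1B (-0.12 to 0.54), POLR1C (-0.053 to 0.55), RRN3 (-0.14 to 0.26), MYBBP1A (-0.24 to 0.30), RRP9 (-0.14 to 0.43) and MYC (-0.22 to 0.25).

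The labels number replicate 2 of DMSO and of 0.2 μM. A replicate block on these 4 libraries called 1249 genes, where 178 were called on the same libraries without the block. Of the 1249, 1 was among the 52 genes (RRS1) and 0 among the other biogenesis genes. The median log2FC of the 52 genes was -0.13 with the block. The deviation of replicate 2 from replicate 1 correlated between the conditions with r = 0.528 across all genes, which are not independent, and with r = -0.215 across the 52. The labels name no shared day, so whether libraries of the same number were handled together cannot be told from them. In the pooled comparison, leaving out a DMSO library leaves that group with 1 sample, whose spread is taken from the doxorubicin libraries. Leaving out a 0.2 μM library leaves 2 doxorubicin libraries of different doses. With 2 and 3 libraries a group, intervals such as -0.46 to 0.66 for POLR1A show what these numbers could not resolve.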

Other observations

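The count table also lists the products of Pol I, although poly-A selection removes most of them. RNA18S5 took 1.02% and 1.39% of all counts in the DMSO libraries and 2.26%, 2.15% and 2.23% in the doxorubicin libraries, in the order of replicates 1 and 2 of 0.2 μM and 0.34 μM. All doxorubicin libraries were higher, with a log2FC of 0.91 (SE 0.19, adjusted p = 0.0269 in edgeR and 4.05e-05 in DESeq2). RNA28S5 took 0.322% and 0.493% of counts in DMSO and 0.675%, 0.670% and 0.684% in doxorubicin, with a log2FC of 0.77 (SE 0.21, adjusted p = 0.0564 in edgeR and 0.00436 in DESeq2) and no overlap. The precursor RNA45S5 was counted 1173 and 3229 times in DMSO against 3937, 2271 and 4878 times after the drug, with overlap (log2FC 0.57, 95% interval -0.46 to 1.59). RNA5-8S5 had 291 and 1471 counts in DMSO against 1491, 1065 and 2355 after the drug, with overlap. Its log2FC was 0.70 (95% interval -0.74 to 2.13). Of all genes tested, 24.3% lay above DMSO without overlap, and DESeq2 called 6.44% as higher. The rows of ribosomal RNA share sequence, and in these libraries the level of ribosomal RNA and its escape from poly-A selection cannot be told apart.

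Together the 52 genes took 0.4996% and 0.551% of all counts in DMSO and 0.346%, 0.488% and 0.352% in doxorubicin. This share weighs genes by their counts. In DMSO replicate 1, NCL gave 33751 and NPM1 29653 of the 133491 counts of the list. The fold change of the 52 genes did not follow the span of the gene closely (Spearman's rho 0.14 across the 52 genes, -0.14 across 13005 genes tested with a RefSeq symbol, as a description, since genes share the same libraries).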
